A study of Mus musculus with 6 samples.

Results

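The reproductive homeobox (*Rhox*) genes are a family of homeobox transcription factor genes in 1 cluster on the mouse X chromosome. The 8 genes considered here were *Rhox1*, *Rhox5*, *Rhox6*, *Rhox9*, *Rhox10*, *Rhox11*, *Rhox12* and *Rhox13*, taken by pairing gene identifiers, without their version, with mouse gene symbols. Of these 8 genes, 7 were found among 22380 gene identifiers, of which 20775 were paired with a symbol and 1605 were not. *Rhox5* was paired with no identifier, so that its expression was not analysed here. Its transcript and promoter sequences are counted below among those of the members.

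RNA was measured in mouse embryonic stem cells (mESC) of 2 genotypes, in 3 *Ctrl* and 3 *Tet iTKO* libraries. The study's reporting summary names 3 mESC populations per genotype, from different embryos, for all experiments. Sample labels give replicate numbers only, and the legend of the RNA figure speaks of 3 independent experiments. Each library is called a line here. All 6 lines carried *CreERT2* (wt/ki), a tamoxifen-dependent recombinase that the methods place under the human ubiquitin C promoter, and the *Gt(ROSA)26Sor<tm1Ytchn>/J* allele (wt/ki), which gives a nuclear green fluorescent protein after recombination. The *Tet iTKO* lines also carried *Tet1/2/3 fl/fl*, and *Ctrl* lines had no floxed *Tet* allele, so that both groups received the drug and the recombinase. The drug was 4-hydroxytamoxifen at 1 µM, given for 2.5 days, although the methods passage that states this dose gives 2 days. The cells were sorted after 4 further days (day 6.5) from 2i cultures on feeder fibroblasts as live, CD326+, GFP+ and Thy1.2- cells.

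TET enzymes oxidise 5-methylcytosine, the first step of active DNA demethylation. *Rhox* genes are best known from testis, ovary, germ cells and placenta, and DNA methylation is known to silence much of the cluster in cells of the embryo proper. Mouse ESC in 2i medium carry little DNA methylation, and several germline genes are transcribed in them at a low level.

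A pair of members are close copies of each other, and their sequences bear on how reads were assigned. *Rhox6* and *Rhox9*, both known from placenta and germ cells, had coding sequences of 684 bases each in the GENCODE M21 annotation of GRCm38, of which 620 bases (90.6%) were identical. Their longest shared run, of 161 bases at coding positions 167 to 327 in both genes, is shown because a read of 50 bases inside it has no unique place between the pair.
Rhox6 and Rhox9 shared run: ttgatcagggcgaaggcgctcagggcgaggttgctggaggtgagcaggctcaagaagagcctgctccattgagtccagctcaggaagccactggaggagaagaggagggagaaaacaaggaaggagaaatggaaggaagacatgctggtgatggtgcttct
The 100 bases in which the pair differed most, at coding positions 363 to 462, held 22 differences, which are in capitals, and reads from such a stretch tell the genes apart.
Rhox6: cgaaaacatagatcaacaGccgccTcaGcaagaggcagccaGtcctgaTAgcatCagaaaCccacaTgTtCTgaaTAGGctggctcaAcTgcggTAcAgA
Rhox9: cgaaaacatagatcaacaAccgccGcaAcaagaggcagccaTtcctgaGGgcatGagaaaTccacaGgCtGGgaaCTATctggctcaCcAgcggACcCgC
Of 961 windows of 50 bases along the *Rhox6* transcript, 802 (83.5%) occurred in no other annotated transcript, and for *Rhox9* the count was 674 of 833 (80.9%). The remaining windows of each gene were shared with the other one, and all windows of the other members were unique. The authors kept uniquely aligned reads, so that a read pair lying wholly inside shared windows would have been lost to both genes.

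CG dinucleotides are the main sites of DNA methylation, and their number in the promoters of members differed. Promoters are given as 300 bases from RefSeq on GRCm38.p6, 250 before and 50 after the transcript start, read on the strand of the gene and with each CG in capitals. The promoter of *Rhox1* (chrX:37222209-37222508, minus strand), the member with the largest log2 fold change among those tested, held 0 CG. Those of *Rhox13* (chrX:38120590-38120889, plus strand) and *Rhox10* (chrX:38066225-38066524, plus strand), shown for comparison as members at or near the detection limit, held 5 and 9.
Rhox1: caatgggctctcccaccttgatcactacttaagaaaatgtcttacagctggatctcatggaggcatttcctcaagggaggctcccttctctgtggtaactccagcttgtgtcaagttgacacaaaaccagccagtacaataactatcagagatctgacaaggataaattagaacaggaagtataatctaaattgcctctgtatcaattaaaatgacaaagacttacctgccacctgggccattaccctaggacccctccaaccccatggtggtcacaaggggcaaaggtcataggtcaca
Rhox13: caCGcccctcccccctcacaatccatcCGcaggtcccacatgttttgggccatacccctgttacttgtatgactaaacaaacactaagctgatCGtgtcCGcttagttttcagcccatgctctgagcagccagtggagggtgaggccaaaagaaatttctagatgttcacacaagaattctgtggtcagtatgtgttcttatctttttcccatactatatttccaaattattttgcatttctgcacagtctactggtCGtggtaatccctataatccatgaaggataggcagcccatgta
Rhox10: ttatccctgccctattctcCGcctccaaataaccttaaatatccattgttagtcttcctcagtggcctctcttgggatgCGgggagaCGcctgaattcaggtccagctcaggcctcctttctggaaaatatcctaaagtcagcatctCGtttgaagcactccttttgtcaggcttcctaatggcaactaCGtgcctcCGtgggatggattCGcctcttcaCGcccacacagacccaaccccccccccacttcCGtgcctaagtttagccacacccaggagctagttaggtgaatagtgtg
Among 32851 promoters of this length the median was 7 CG, with quartiles at 3 and 20. Promoters were available for 6 members, *Rhox5* among them, with 0 to 9 CG, and for 21 other *Rhox* genes, with 2 to 12. None was available for *Rhox6* or *Rhox9*. Letters of 3 motifs known from factors at germline gene promoters were looked for on both strands, each without regard to the others: CACGTG, the E-box bound by MAX and MGA, TCCCGC, the core of E2F sites, and CCGGAAGT, an ETS site. They stood in 7.15%, 19.98% and 3.89% of all promoters, in 0 of the 6 members, and in 5, 0 and 7 of the 21 other *Rhox* promoters. The 5 with CACGTG were all copies of *Rhox4*, and the 7 with CCGGAAGT were all copies of *Rhox2*. The promoters of such copies are much alike in sequence, so that they are not independent and their share cannot be set against that of all promoters.

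Values are read counts per gene that the authors divided by a size factor for each library and rounded to whole numbers, called normalized counts here. Per library they summed to 4210784 to 4219665 in *Ctrl* and to 3964824 to 3996522 in *Tet iTKO*. The reads behind them were estimated at 3.66 to 5.10 M. ESC markers were at a high level in every library, with sums over 10 genes of 11592 to 11913 in *Ctrl* and 10816 to 11174 in *Tet iTKO*. Over the whole gene, *Tet1* ran at 696, 682 and 716 in the *Ctrl* libraries and at 787, 895 and 753 in those of *Tet iTKO* (log2 fold change 0.21, limma adjusted p = 0.0257). *Tet2* did not differ beyond the spread (log2 fold change 0.14, limma adjusted p = 0.43). Such values do not separate the floxed exons from the rest of the gene. *Tet3* fell from 28, 13 and 13 to 10, 3 and 3 (log2 fold change -1.67, limma adjusted p = 0.0353). After a correction of each library for transcript length and GC content, *Tet1* was at 0.14 (limma adjusted p = 0.173) and *Tet3* at -2.16 (limma adjusted p = 0.00793).

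The 7 members found, without *Rhox5*, together took few reads in both groups, and fewer in *Tet iTKO*. Their normalized counts summed to 93, 119 and 138 in the *Ctrl* libraries and to 64, 74 and 80 in the *Tet iTKO* libraries, so that the sums did not overlap. In bulk RNA, fewer cells with a transcript and less transcript per cell cannot be told apart. *Rhox6*, *Rhox9* and *Rhox1* made up nearly all of the member sums and were the 3 members with a mean of at least 10, the minimum for testing. Of these, 2 were lower in *Tet iTKO* at an adjusted p under 0.05 (limma with Benjamini-Hochberg adjustment) and 0 were higher, where 34.8% of the 10524 genes tested passed, 18.4% lower and 16.4% higher. At a log2 fold change of -1 or less besides, 1 member (*Rhox1*) was counted, against 1.3% of genes tested, and with a correction of each library for transcript length and GC content 0 members were lower, against 2015 of the 10524 genes, and 0 were higher, against 9.77%. Their median log2 fold change was -0.90, beside 0.01 over all genes tested. X-linked genes had a median of -0.08, with 20.9% of 340 genes lower and 14.1% higher.

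**Figure D1:**
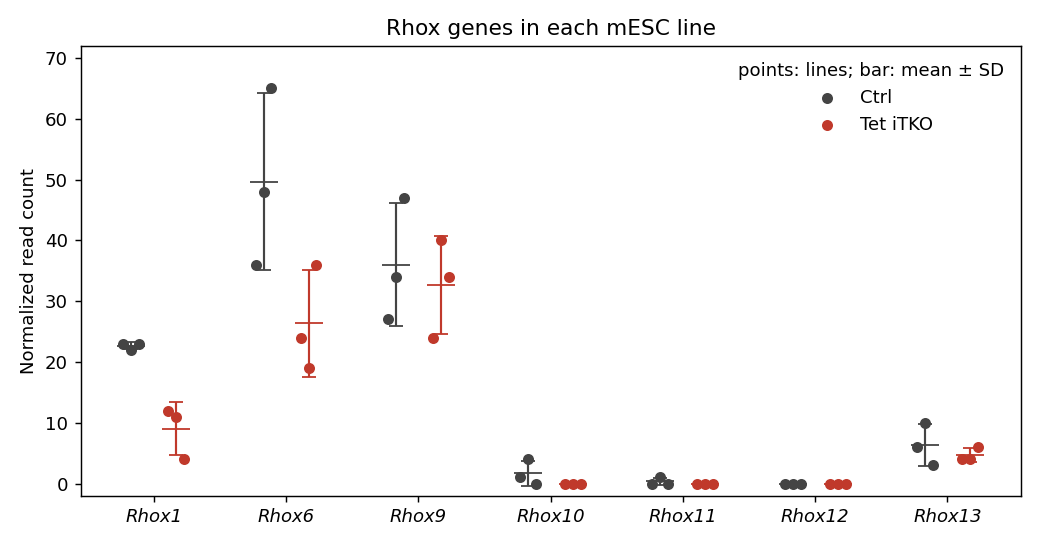
Normalized read counts (vertical axis, linear) of the 7 Rhox genes found, with 1 point per mESC line and bars for the mean ± SD of 3 Ctrl and 3 Tet iTKO lines. Rhox1 separates the groups, with 22 to 23 against 4 to 12, Rhox6 meets at 36, Rhox9 overlaps, and Rhox10, Rhox11 and Rhox12 lie at 0 in all Tet iTKO lines.

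*Rhox1* (ENSMUSG00000071773.4, chrX:37213804-37222258, minus strand, GRCm38) lies at one end of the cluster. Its normalized counts were 23, 22 and 23 in the *Ctrl* lines, against 12, 11 and 4 in the *Tet iTKO* lines. All *Tet iTKO* lines lay below all *Ctrl* lines, which were close together, and the lowest *Tet iTKO* line was replicate 3. Means were 22.7 ± 0.577 (SD, n = 3) and 9.0 ± 4.36 (SD, n = 3), 39.7% of the *Ctrl* mean, and an estimated 4 to 22 reads stood behind each value. The difference was -1.36 on the log2(normalized count + 1) scale (standard error 0.51, 95% interval -2.39 to -0.33, limma adjusted p = 0.0346). Groups that did not overlap in the lower direction were also seen for 22.9% of genes tested (44.1% in either direction), and the exact two-sided permutation p was 0.1, the smallest that 3 lines against 3 allow. *Rhox1* passed the minimum mean through its *Ctrl* values. The call was lost without *Ctrl* replicate 1 (limma adjusted p = 0.0749), *Ctrl* replicate 2 (0.0745), *Ctrl* replicate 3 (0.0758) or *Tet iTKO* replicate 3, for which the log2 fold change was -0.92 (limma adjusted p = 0.169). With the length and GC correction it was -1.06 (limma adjusted p = 0.116).

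*Rhox6* (ENSMUSG00000006200.3, chrX:37826910-37829857, plus strand, GRCm38), 604.7 kb from *Rhox1*, had the highest *Ctrl* level of the members. The *Ctrl* lines had 36, 48 and 65 normalized counts and the *Tet iTKO* lines 24, 19 and 36. The groups met at 36, the lowest *Ctrl* and the highest *Tet iTKO* value, and otherwise every *Tet iTKO* line was lower. Means were 49.7 ± 14.6 (SD, n = 3) and 26.3 ± 8.74 (SD, n = 3), 53.0% of the *Ctrl* mean. Between groups it fell by 0.90 on the log2 scale (standard error 0.33, 95% interval -1.56 to -0.23, limma adjusted p = 0.0308), with an exact permutation p of 0.2. This call was kept without *Ctrl* replicate 1 or *Tet iTKO* replicate 3 and lost without *Ctrl* replicate 2 (limma adjusted p = 0.0692), *Ctrl* replicate 3 (0.167), *Tet iTKO* replicate 1 (0.0741) or *Tet iTKO* replicate 2 (0.142). After the length and GC correction the value was -0.65 (limma adjusted p = 0.138).

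*Rhox9* (ENSMUSG00000068048.7, chrX:37899097-37901770, minus strand, GRCm38) lies 69.2 kb beyond *Rhox6*. Normalized counts of 27, 34 and 47 were found in *Ctrl*, beside 24, 40 and 34 in *Tet iTKO*. The groups overlapped over most of their range, and the mean was 36.0 ± 10.1 (SD, n = 3) in *Ctrl* against 32.7 ± 8.08 (SD, n = 3) in *Tet iTKO*. On the log2 scale the difference of -0.13 was within the spread between lines (standard error 0.33, 95% interval -0.80 to 0.54, limma adjusted p = 0.80), and the interval leaves room for a fall or a rise of moderate size. Its sign turned without *Ctrl* replicate 3 (0.08) or *Tet iTKO* replicate 1 (0.07).

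**Figure D2:**
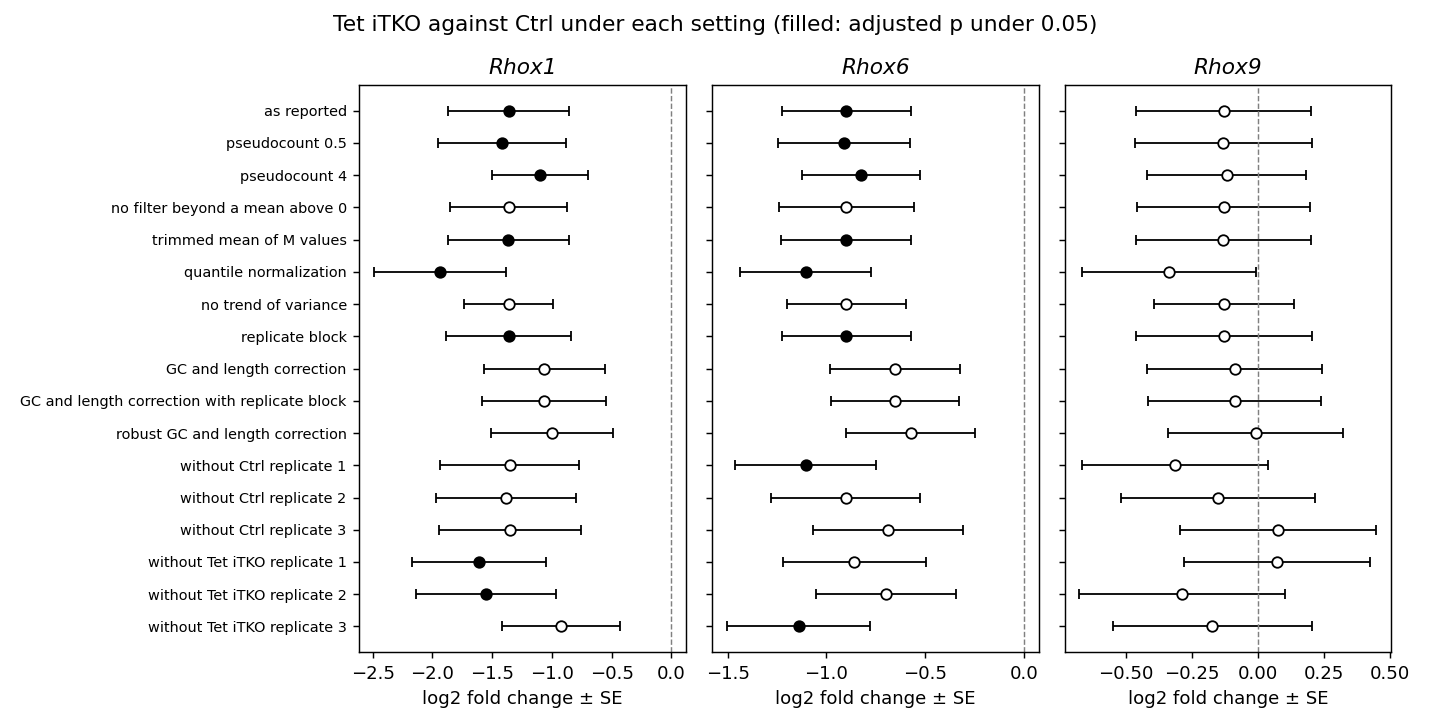
Log2 fold change ± standard error (horizontal axis, Tet iTKO against Ctrl) of Rhox1, Rhox6 and Rhox9 as reported and under each alternative setting. Filled circles have an adjusted p under 0.05, and Rhox1 and Rhox6 stay below 0 in every setting plotted. The circle is open for both after each length and GC correction, with no filter and with no trend of variance. It is also open for both without Ctrl replicate 2 and without Ctrl replicate 3.

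Because the pair is so alike, the ratio of *Rhox6* to *Rhox9* within a library was compared as well. *Rhox6* exceeded *Rhox9* by 1.33, 1.41 and 1.38 times in *Ctrl*, and the ratio was 1.0, 0.475 and 1.06 in *Tet iTKO*. The *Ctrl* ratios lay close together and above all *Tet iTKO* ratios, of which that of replicate 2 was the lowest. On the log2 scale with 1 added to each count, the means were 0.45 ± 0.04 (SD, n = 3) and -0.32 ± 0.62 (SD, n = 3), a difference of -0.77 (exact two-sided permutation p = 0.1, 0.3 after Benjamini-Hochberg adjustment over 3 pairs of members). *Rhox1* against *Rhox9* differed by -1.23 (exact permutation p = 0.2, adjusted 0.3) and *Rhox1* against *Rhox6* by -0.46 (exact permutation p = 0.8, adjusted 0.8). Without *Tet iTKO* replicate 2 the difference of *Rhox6* to *Rhox9* was -0.41, without *Tet iTKO* replicate 3 that of *Rhox1* to *Rhox9* was -0.75, and that of *Rhox1* to *Rhox6* ran from -0.86 to 0.22 over the fits without 1 line. No pair of members was thus shown to change unequally, and 3 lines against 3 could not have reached 0.05.

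Per kb of the first annotated transcript, mean levels in *Ctrl* were 49.2 normalized counts for *Rhox6*, 40.8 for *Rhox9*, 25.7 for *Rhox1* and 7.23 for *Rhox13*. Over lines, *Rhox6* spanned 35.6 to 64.4 and *Rhox9* 30.6 to 53.3, so that the ranges of these neighbours overlapped. Within each *Ctrl* library, however, *Rhox6* was the higher of the pair per kb, with count ratios of 1.33, 1.41 and 1.38. *Rhox1* (24.9 to 26.0) and *Rhox13* (3.42 to 11.4) each lay below both. In *Tet iTKO* the order of mean levels per kb was *Rhox9* (37.0), *Rhox6* (26.1), *Rhox1* (10.2) and *Rhox13* (5.33), and the ranges of *Rhox9* and *Rhox6* overlapped, as did those of *Rhox1* and *Rhox13*, while all *Rhox6* values (18.8 or more) lay above all *Rhox1* values (13.6 or less). A longer *Rhox9* transcript of 2422 bases would give 14.9 per kb in *Ctrl*, below *Rhox1*.

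*Rhox13* (ENSMUSG00000050197.4, chrX:38121219-38129967, plus strand, GRCm38), known from testicular germ cells, was above 0 in every library but stayed below the minimum mean. Its values were 6, 10 and 3 in *Ctrl*, beside 4, 4 and 6 in *Tet iTKO*. The groups overlapped, and in a fit of all genes with a mean above 0 its log2 fold change was -0.27 (limma adjusted p = 0.77). *Rhox10*, a gene of spermatogonial stem cells, had 1, 4 and 0 in *Ctrl* and 0 in each *Tet iTKO* library, and 1 of these values was above the 3 counts taken as the floor of a library. *Rhox11* had 1 normalized count in *Ctrl* replicate 2 and 0 elsewhere, and *Rhox12* was listed at 0 in all 6 libraries. A change in these genes was not detectable at this depth, and no rise from 0 in *Tet iTKO* was seen.

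Few or no reads were assigned to the rest of the cluster, which does not by itself show that it was silent. Of 28 other *Rhox* genes, many of them near-identical copies whose reads may have no unique place, 19 were found and 13 were at 0 in all libraries. The other 6 had at most 4 normalized counts in a library, and their sums over 19 genes were 1, 5 and 4 in *Ctrl* and 0, 0 and 1 in *Tet iTKO*. *Rhox2a* had the highest value, with 0, 4 and 1 in *Ctrl* and 0 in all *Tet iTKO* libraries.

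Of 14 listed genes beside the cluster, 9 were tested, of which 2 were lower and 0 higher, where 18.4% and 16.4% of all genes tested were. *Ndufa1*, a subunit of respiratory complex I, fell by 0.60 on the log2 scale (limma adjusted p = 0.00049) and *Rpl39*, a ribosomal protein gene, by 0.52 (limma adjusted p = 0.00018). Their longest transcripts have 419 and 612 bases, and after the length and GC correction their values were 0.05 and 0.02, neither past the threshold, and 0 genes of the list were then lower and 2 higher (*Cul4b* 0.32, limma adjusted p = 0.00333, and *Mcts1* 0.36, limma adjusted p = 0.038). Over a window of 1000 kb on either side, chosen with the results known, 5 of 17 tested genes outside the family were lower and 0 higher, with a median log2 fold change of -0.22.

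**Figure D3:**
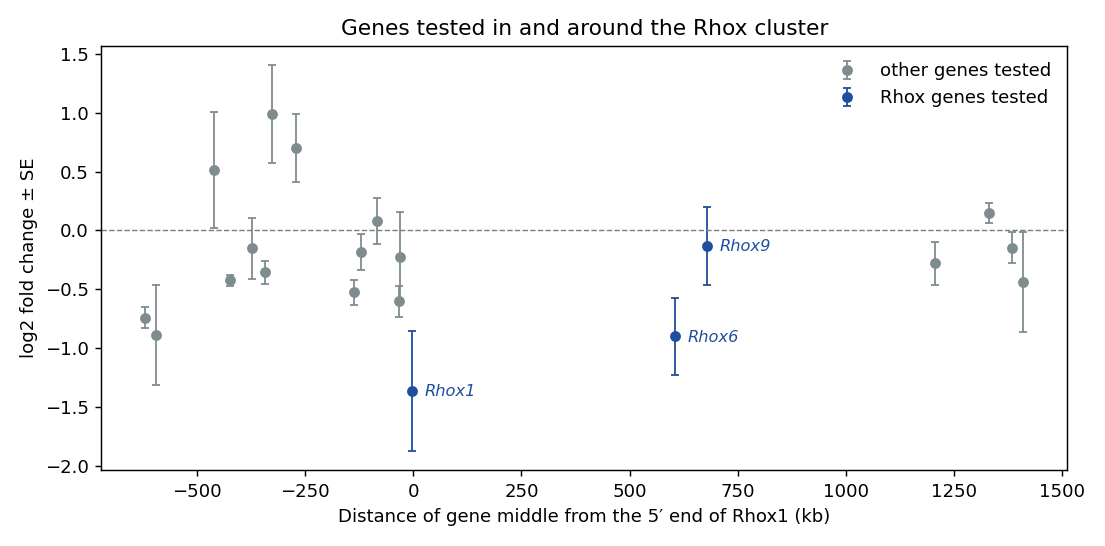
Log2 fold change ± standard error (vertical axis) of the genes tested in and within 1000 kb of the Rhox cluster, against the distance of the middle of each gene from the 5′ end of Rhox1 in kb (annotation of GRCm38). Rhox1 (-1.36) has the lowest value plotted and Rhox6 (-0.90) lies beside Rhox9 (-0.13).

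Germline genes that DNA methylation is known to silence were called in both directions. Of 30 listed genes 22 were tested, of which 6 were lower and 1 higher, with a median log2 fold change of -0.01. Over all genes tested, 18.4% were lower and 16.4% higher. The largest among those past the threshold were *Dazl*, an RNA-binding protein of germ cells (-1.54), *Mov10l1*, a helicase of the piRNA pathway (1.41), *Rpl10l*, a ribosomal protein gene of spermatocytes (-1.16), and *Hormad1*, a meiotic chromosome axis protein (-0.80), and after the length and GC correction their values were -1.26, 1.30, -0.84 and -0.38, the last with a limma adjusted p of 0.0469. The groups overlapped for *Mov10l1*, the only higher call before the correction (24, 9 and 9 in *Ctrl* against 43, 70 and 14 in *Tet iTKO*). Among 17 tested genes for DNA methylation and germline gene silencing, 4 were higher and 3 lower, beside the same shares over all genes tested. *Dnmt3l*, a cofactor of de novo methylation, was lower (-0.49), *Kdm1a*, a histone demethylase, was lower (-0.27), and *Setdb1*, a histone methyltransferase, was higher (0.48). *Dnmt3a*, a de novo methyltransferase, was higher (0.25), but its value after the correction was -0.14, not past the threshold, and then 1 gene of the list was higher and 7 were lower.

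**Figure D4:**
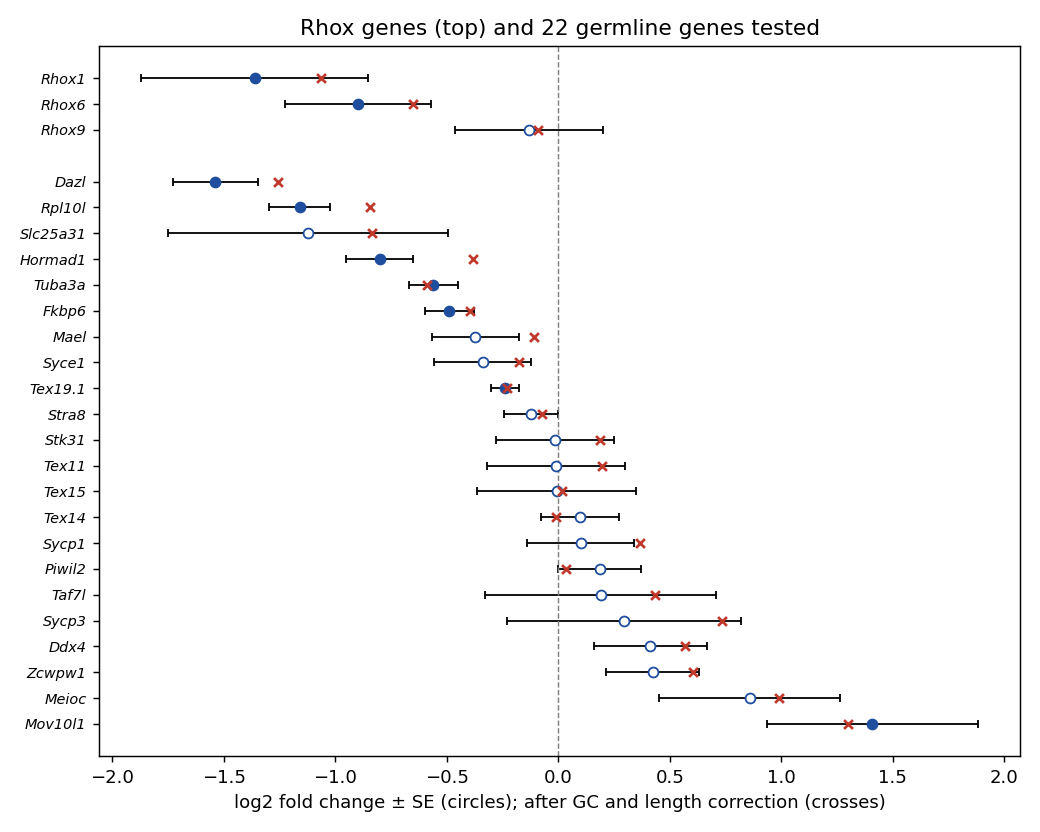
Log2 fold change ± standard error (horizontal axis, circles, filled where the adjusted p is under 0.05) of the 3 Rhox genes tested (top) and of 22 germline genes (below), with crosses for the value after the length and GC correction. The germline genes run from -1.54 (Dazl) to 1.41 (Mov10l1), and both Rhox calls move toward 0 with the correction.

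Markers of other cells were set beside these values, since placenta and germ cells express *Rhox* genes. Their calls stand beside 18.4% lower and 16.4% higher over all genes tested. Trophoblast markers (5 of 12 tested) had 2 higher, *Krt8* and *Krt18*, and 1 lower, *Tfap2c*. Their sums were 743 to 833 in *Ctrl* and 814 to 840 in *Tet iTKO*, and after the length and GC correction the counts of calls were the same. The untested trophoblast markers, all at low counts, went in different directions. *Plac1* and *Tpbpa*, known from placenta, were at 0 in all libraries. *Hand1* and *Cdx2* were at 0 in each *Ctrl* library and at 6, 5 and 6 and at 1, 5 and 2 in *Tet iTKO*. Means were lower in *Tet iTKO* for *Gata3* (10, 10 and 1 in *Ctrl* against 4, 5 and 4) and *Krt7* (7, 13 and 2 against 5, 2 and 0). *Elf5* had 1 count in *Tet iTKO* replicate 3 and 0 elsewhere. For primordial germ cell markers, 8 of 8 were tested with 2 higher and 3 lower (1 and 3 after the correction), and sums were 1662 to 1815 and 1570 to 1589. Feeder fibroblast markers had 3 higher and 0 lower of 4 tested (of 10; 2 and 0 after the correction), with sums of 280 to 293 and 478 to 556. For primitive endoderm markers, 1 was higher and 0 were lower of 3 tested (of 10; 0 and 0 after the correction), with sums of 45 to 54 and 83 to 106, and for 2-cell-like markers 5 were higher of 5 tested (of 10), with sums of 15 to 27 and 179 to 207. *Eif2s3y*, on the Y chromosome, was lower (363, 344 and 375 against 182, 181 and 178), and *Kdm5d*, *Uty* and *Ddx3y* were above 0 in all 6 lines and not past the threshold. The part of these cells in the *Rhox* values was not tested.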

How the data were processed

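RNA of 6 mESC lines was made into Smart-Seq2 libraries, which keep no strand and tag no molecules, with paired 50-base sequencing. The authors ran STAR (unique alignments), counted them per gene with HTSeq 0.7.1 under a stranded setting, which on such libraries leaves reads of the other orientation uncounted, and normalized with DESeq2 1.26.0 in R 3.5.2; the submitters' processing notes name mm9. The deposited values are scores, namely these normalized counts rounded to whole numbers, so that count models were not used, although one was planned for raw counts. Symbols, lengths and coordinates came from GENCODE M21 (GRCm38), a different build, and the annotation release behind the files is not given in the sources used here.

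The comparison used lmFit and eBayes (with a variance trend) of limma 3.58.1 under R 4.3.3 on log2(normalized count + 1) for genes whose mean reached 10. Benjamini-Hochberg adjustment ran over all genes tested, at a threshold of 0.05, after tests on simulated data. Limma p-values set each difference against the spread between lines. That spread is in part borrowed from other genes of similar mean through the variance trend. Exact permutation tests, which use the lines of 1 gene alone, gave p = 0.1 for *Rhox1* and 0.2 for *Rhox6*. Ratios of members were compared with exact permutation tests. Reads per library were estimated from the gaps that rounding leaves among whole numbers, and floors of 3 counts cover counting error only. The length and GC correction subtracted a loess fit (span 0.3) of each library. Other settings were pseudocounts of 0.5 and 4, no filter, a mean of at least 50, trimmed means of M values, quantile normalization, no trend, a replicate block, a fold threshold, and each line left out.

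The members and lists were chosen with earlier results of these data known. Genes named are all members, *Tet* genes and sex-linked markers, and up to 4 genes of each other list, those with the largest change among genes past the threshold. *Cul4b*, *Mcts1*, *Plac1*, *Tpbpa*, *Hand1*, *Cdx2*, *Gata3*, *Krt7* and *Elf5* were named after their values were seen. Genes with a pattern like a member's were to be named for members with a mean of at least 50, which none had. *Xist* and *Tsix* were paired with no identifier. Python 3.11.15, pandas 2.3.3 and NumPy 2.4.6 served for the tables.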

Additional observations from a re-analysis of the deposited data

How the results depend on the processing

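*Rhox1* and *Rhox6* kept their direction in all settings tried, but not their call. With no filter (-1.36 and -0.90 on the log2 scale, with limma adjusted p = 0.0788 and 0.0924) and with no trend of variance (the same fold changes, 0.0505 and 0.0835) 0 members were called lower. With the length and GC correction the values were -1.06 and -0.65, and together with the replicate block they were the same (limma adjusted p = 0.125 and 0.13), again with 0 members called. With a robust form of the correction, chosen after seeing the data, they were -1.0 and -0.57 (limma adjusted p = 0.151 and 0.206), with 0 members called. The cause of these losses was not tested. With a fold threshold added, 1 member (*Rhox1*), 137 genes lower and 521 higher were counted. Without the trend, 1217 genes were lower and 1075 higher. After the correction 1028 genes were higher (1038 with the block) and 2015 lower, so that 66.2% of calls were lower instead of 52.8%, while the robust form gave 51.7%. In fits without 1 line each, members called ran from 0 to 1, and the log2 fold changes from -1.61 to -0.92 for *Rhox1*, -1.14 to -0.69 for *Rhox6* and -0.31 to 0.08 for *Rhox9* (0.0752 without *Ctrl* replicate 3, 0.0696 without *Tet iTKO* replicate 1). Differences in log2 ratio then ran from -0.86 to 0.22 for *Rhox1* to *Rhox6*, -1.68 to -0.75 for *Rhox1* to *Rhox9* and -0.97 to -0.41 for *Rhox6* to *Rhox9*. With the shorter *Rhox9* transcript, also chosen after seeing the data, the corrected value of *Rhox9* turned to 0.29 (limma adjusted p = 0.568). At a mean of at least 50 no member could be tested. The replicate numbers did not pair the lines (correlations of deviations 0.019, 0.003 and 0.002 for equal numbers), and the replicate block left 1980 genes lower and 1762 higher with no member's call changed. Depth limits all of this, since no member reached a mean of 50.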

Other observations

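Among the primordial germ cell markers, *Prdm1*, a transcription factor that specifies germ cells, fell from 59, 57 and 41 normalized counts in the *Ctrl* lines to 15, 25 and 22 in the *Tet iTKO* lines, a difference of -1.31 on the log2 scale (limma with Benjamini-Hochberg adjustment, adjusted p = 0.00195). *Dppa3*, which protects the maternal genome from oxidation by TET3 in the zygote, rose from 251, 302 and 294 to 369, 347 and 331, by 0.31 on the log2 scale (limma adjusted p = 0.0212). After the length and GC correction the values were -1.42 and 0.79. The groups did not overlap in either gene, as was the case for 44.1% of all genes tested. They were named after their values were seen.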
